A study of Drosophila melanogaster with 12 samples.

Results

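BMP signalling genes were followed across the 4 groups of an RNA-seq experiment on intestinal stem cells of the adult Drosophila melanogaster midgut. The members were chosen by symbol as the core of the pathway: the ligands dpp and gbb, the type I receptors tkv and sax, the type II receptor put, the signal transducers Mad and Med, the inhibitory Smad Dad, and the DNA-binding factors shn and brk. All 10 members are among the 8802 genes of the deposited table, and 9 of them had enough counts to be tested with 7992 genes in all. The choice used no measured value, but it was made with earlier results of these data known.

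The study asked which genes are targets of Shavenbaby (Svb), a transcription factor that is encoded by the ovo gene. In the SvbACT group the cells carried UAS-SvbACT::GFP, a constitutive form of the factor. The group labelled svb RNAi carried UAS-SvbRNAi (VDRC stock 41584), and the SvbREP group carried UAS-Svb3Kmut::GFP, which the labels also call constitutive. Control flies came from a cross to Canton-S (Bloomington stock 64349) and carried the driver without any of these constructs. Every group shared the driver esg-Gal4 with UAS-GFP and the temperature-sensitive repressor tubGal80TS, so constructs were expressed where esg is active, which includes stem cells and their immediate progeny. Virgin females were aged for 3 days, kept at 29 °C for 6 days and dissected when 9 days old. Each library came from sorted cells of the pooled posterior midguts (regions R3 to R5) of more than 20 females, and each group had 3 libraries, made on different days according to the design text. The p-values measure the spread between these pools, since no label follows single animals.

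BMP ligands bind a complex of type I and type II receptor kinases, which phosphorylates Mad. Phosphorylated Mad joins Med, the common Smad, and enters the nucleus, where the pair works with Schnurri, the product of shn, to silence brk. Brk is a repressor of BMP target genes, and Dad is both a target of the pathway and an inhibitor of it, so Dad transcripts are widely used as a readout of BMP signalling in fly tissues. In the adult midgut the pathway is known for its part in the identity of the copper cell region and in the control of stem cell proliferation and self-renewal.

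Total counts of a library lay between 4361322 and 6036911 in SvbACT, between 4298998 and 5518895 in the RNAi group, between 2965852 and 5786969 in SvbREP and between 5557969 and 6575392 in control. Levels are given as counts per 1000000 counts of the library, scaled by TMM factors (CPM), and the smallest level set by 3 counts lay between 0.482 and 1.02 CPM, a limit that covers counting error only. The ovo gene averaged 2136 ± 114 CPM in SvbACT, 41.1 ± 7.30 CPM in the svb RNAi group, 2157 ± 65.6 CPM in SvbREP and 4.23 ± 6.26 CPM in control (SD, n = 3 each). The control mean rests on the second control library, the highest at 11.5 CPM, against 0.482 CPM in the lowest; the log2 difference of the RNAi libraries from control was 3.29, and 6.01 without that library. Every RNAi library was above every control library in ovo, so these counts do not show the knockdown that the label names. They do not settle the label, since counts per gene cannot separate reads of a construct from reads of ovo itself. All directions below are those of the libraries as labelled. The summed level of 7 progenitor markers, with esg and Dl among them, was 9558 to 11862 CPM in SvbACT, 6569 to 7817 CPM in the RNAi libraries, 7389 to 8874 CPM in SvbREP and 8770 to 10226 CPM in control, so defining markers of the labelled cells were present in every library. In bulk samples, fewer cells of a type and less RNA per cell cannot be told apart.

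Over all 4 groups at once, 5 of the 9 tested members changed (Mad, Dad, tkv, brk and shn), in a test that called 28.8% of all genes. The adjusted p-values of edgeR's quasi-likelihood F test were 3.58e-06 for Mad, 0.000776 for Dad, 0.00904 for tkv, 0.0118 for brk and 0.0374 for shn. The members gbb (adjusted p = 0.0842), Med (0.153), put (0.344) and sax (0.891) were not called by edgeR. Without the first library labelled svb RNAi the count of called members was 3.

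**Figure D1:**
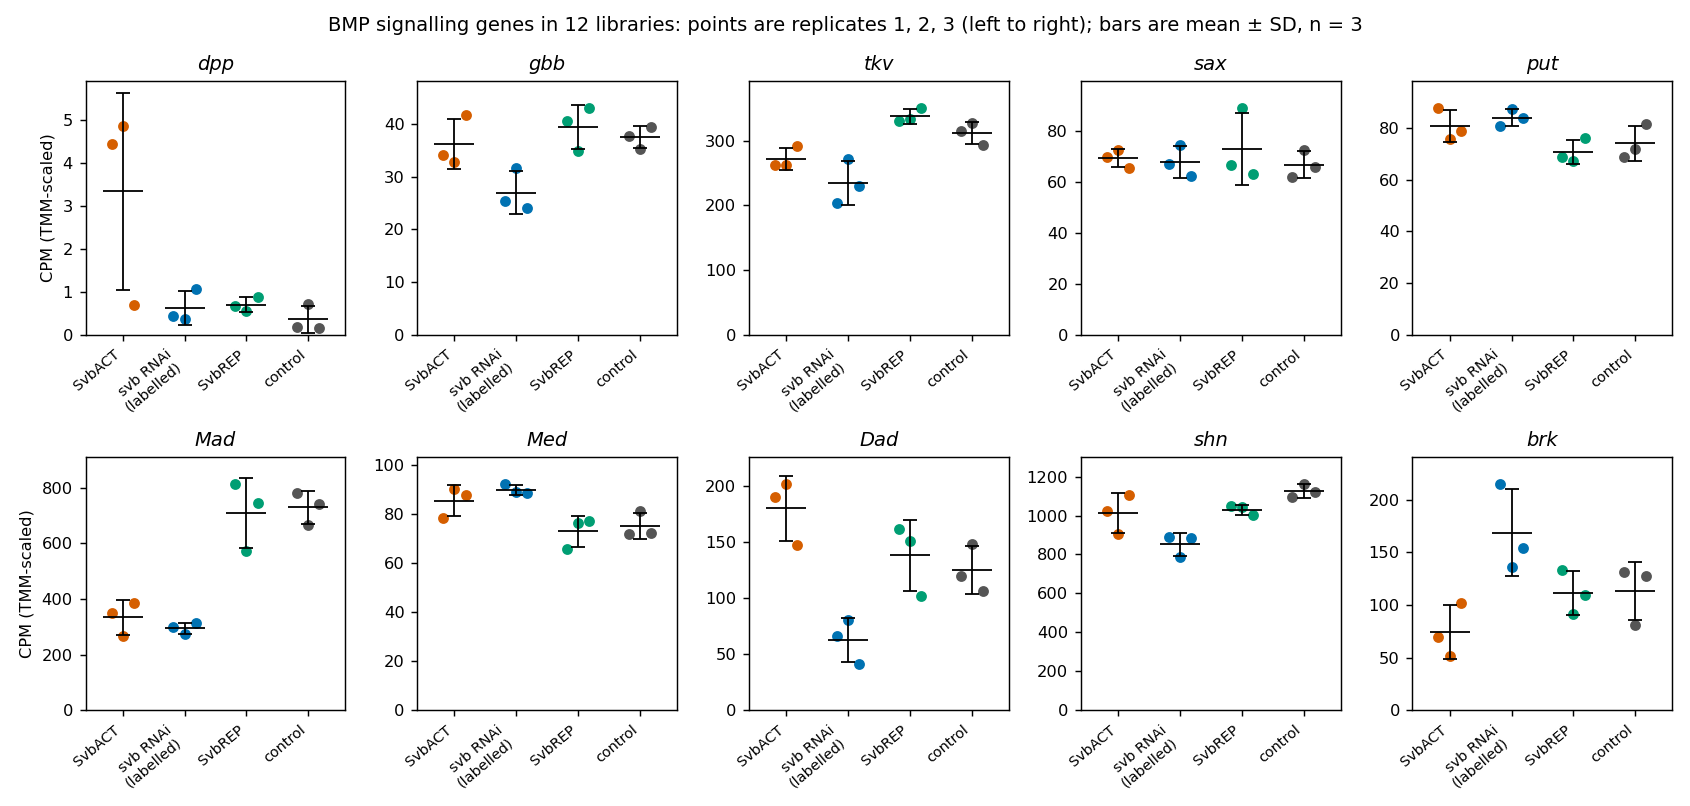
Level of each of the 10 BMP members in CPM, in 1 panel per gene with an axis from 0, for SvbACT, the libraries labelled svb RNAi, SvbREP and control; points are replicates 1 to 3 from left to right, and bars are the mean ± SD (n = 3). Mad sits between 266 and 387 CPM in the SvbACT and RNAi libraries and between 571 and 814 CPM in the SvbREP and control libraries, while Dad is at 41.3 to 80.7 CPM in the RNAi libraries.

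The libraries labelled svb RNAi differed from control in more members than any other group did. There Mad, Dad, tkv and shn fell, no member rose, and 5 did not pass the test; edgeR called 20.4% of all genes in this comparison, 13.7% as lower and 6.74% as higher. The median log2 fold change was -0.40 over the 9 tested members and 0.02 over all genes tested. The groups did not overlap for 7 of the 9 members, against 35.6% of all genes.

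In SvbACT, Mad was the single member that fell against control and none rose, where 9.15% of all genes were called, 3.92% as higher and 5.23% as lower. The groups did not overlap for 2 of the 9 members, against 24.9% of all genes. In a fit with a block for the replicate number, 3 members were called here (Mad and brk lower, Dad higher). Without the third SvbACT library the count was also 3 (Mad and brk lower, dpp higher). Without the second control library it was 2 (Mad lower, dpp higher). In these 2 fits dpp, absent from the main test, passed the filter through the SvbACT libraries where it was high. With 1 library left out, 460 to 769 of all genes were called in this comparison. The members' median log2 fold change was -0.05, against 0.01 over all genes tested. In SvbREP no member was called against control by edgeR, where 4.05% of all genes were called, 1.35% as higher and 2.70% as lower; no member reached an unadjusted p under 0.05 there, and DESeq2 called 0 members too. The groups did not overlap for 2 members (tkv above control, shn below), against 19.3% of all genes. Median log2 fold changes in SvbREP were -0.03 over the members and -0.0031 over all genes. Between SvbACT and SvbREP, Mad was again the single called member and was lower in SvbACT, against a background of 13.1% called, 6.51% as higher and 6.63% as lower. Groups did not overlap for 3 of the 9 members, against 27.9% of all genes. The count was 4 with the block (Mad, tkv and brk lower, Dad higher) and 2 without the third SvbACT library.

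A direct comparison of SvbACT with the libraries labelled svb RNAi was added after the table was seen, because the authors' deposited table includes it. Dad was higher and brk lower in SvbACT, and the other 7 tested members were not called, against 17.4% of all genes called. In the fit with the block the count was 3, with shn higher in SvbACT added. Groups did not overlap for 4 of the 9 members, against 34.2% of all genes. Calls in the deposited table of the authors were the same as those given here for 9 of 9 tested members in each of the 5 comparisons, all of which share libraries with others.

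**Figure D2:**
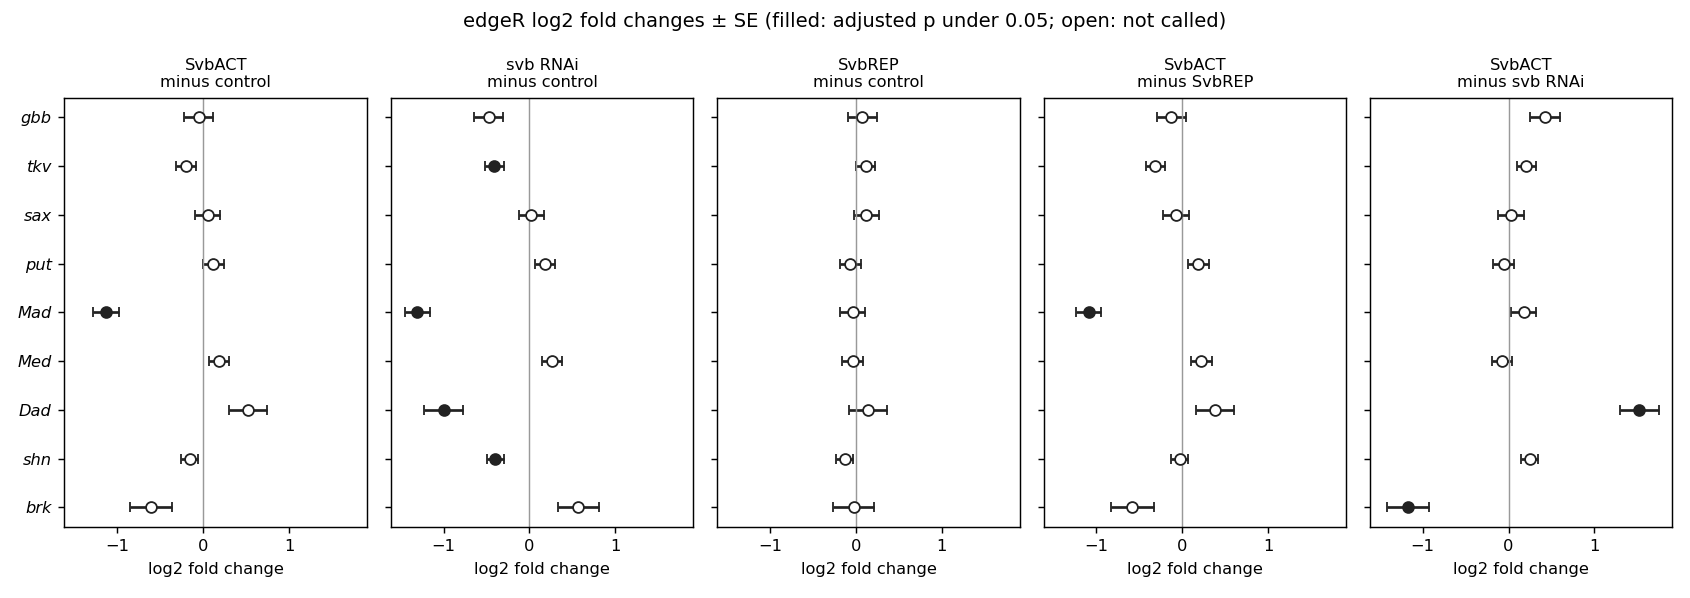
Log2 fold change of the 9 tested members in the 5 comparisons, 1 panel each, with bars of ± SE and filled points where the adjusted p of edgeR was under 0.05. Mad is filled at -1.13, -1.30 and -1.09 where SvbACT or the RNAi libraries are set against control or SvbREP, and SvbACT minus svb RNAi has filled points for Dad at 1.52 and brk at -1.18.

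Of the ligands, dpp was close to the limit of detection. This gene (FBgn0000490) encodes the best known fly BMP ligand and lies on chromosome 2L at 2428372 to 2459823 on the plus strand (Ensembl annotation of assembly BDGP6.54, as for all positions here). It had 19, 24 and 4 counts in the SvbACT libraries, 2, 2 and 6 in those labelled svb RNAi, 2, 2 and 5 in SvbREP, and 1, 4 and 1 in control. Those counts correspond to 4.44, 4.86 and 0.70 CPM in SvbACT, against 0.186, 0.716 and 0.161 CPM in control. The first and second SvbACT libraries stood above all other libraries, and the third was within the range of control.

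Because dpp did not pass the filter on low counts, it has no place in the main test. In a fit without that filter, chosen after its counts were seen, the log2 difference of SvbACT from control was 3.15 (SE 0.960) with an adjusted p of 0.0552 by edgeR. In the authors' deposited table dpp is called higher in SvbACT than in control, with a log2 fold change of 3.13 and an unadjusted p of 0.00194. The outcome turned on single libraries and on the filter. Without the third SvbACT library edgeR called dpp at 3.63 (adjusted p = 0.022), and without control replicate 2 at 4.07 (adjusted p = 0.0469). With a library left out, the smallest group shrinks and the filter asks for enough counts in fewer libraries. In these fits dpp passed through the first and second SvbACT libraries, where it was high, so its calls are no separate support. The 12 markers of visceral muscle, a tissue known to produce dpp, summed to 22.9 to 38.2 CPM in SvbACT and 42.0 to 43.6 CPM in control, with TpnC73F at 0 counts in all 12 libraries. The muscle marker wupA was higher in SvbACT, at 4.38 to 6.78 CPM in SvbACT and 0.643 to 1.119 CPM in control, and was not called by edgeR (adjusted p = 0.0785). Trachea, another known source, gave 1.64 to 3.85 CPM over the 3 of 7 markers in the table in SvbACT and 0.716 to 4.02 CPM in control. The part of these cells in the dpp counts was not tested.

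The second ligand, gbb (FBgn0024234), is a more broadly expressed BMP of chromosome 2R (23851562 to 23853247, plus strand). Its level was 34.1, 32.8 and 41.7 CPM in SvbACT, 25.3, 31.6 and 24.1 CPM in the RNAi libraries, 40.7, 34.9 and 43.0 CPM in SvbREP, and 37.9, 35.3 and 39.5 CPM in control. Every RNAi library was below every library of the other groups. The log2 difference of the RNAi libraries from control was -0.47 (SE 0.170) and missed the threshold, with an adjusted p of 0.063 by edgeR; without the second RNAi library it was -0.63 with an adjusted p of 0.036. Against control, the log2 differences of gbb were -0.05 in SvbACT and 0.08 in SvbREP, with 95% intervals of -0.41 to 0.31 and -0.29 to 0.44.

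Among the receptors, tkv (FBgn0003716) was the member that changed. Thickveins is the main type I receptor for Dpp and is encoded on chromosome 2L at 5219000 to 5271384 on the minus strand. Its level was 262, 262 and 291 CPM in SvbACT, 204, 272 and 229 CPM in the RNAi libraries, 329.7, 333 and 350.2 CPM in SvbREP, and 315, 328 and 293 CPM in control. Each SvbACT and RNAi library was below the control range, and each SvbREP library was above it.

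In the RNAi libraries tkv fell 1.33-fold against control, a log2 change of -0.41 (SE 0.111; edgeR adjusted p = 0.0157). This call was lost without the first RNAi library (-0.33, adjusted p = 0.0767) or without the third (-0.40, adjusted p = 0.0571). In SvbACT the log2 difference from control was -0.20 (edgeR adjusted p = 0.351) and in SvbREP it was 0.11 (adjusted p = 0.643). SvbACT and SvbREP differed by -0.31 (SE 0.111), not called by edgeR at an adjusted p of 0.0808 but called at 0.0396 in the fit with the block. The exons of tkv overlap 158 bp of CR14033 and 54 bp of TpnC25D on the opposite strand, so its counts are uncertain to that extent, since strand use in counting is not given in the sources used here.

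The other receptors were not called in any of the 5 comparisons. Saxophone, a type I receptor linked to Gbb (FBgn0003317, chromosome 2R, 7806484 to 7810067, plus strand), had 69.6, 72.5 and 65.3 CPM in SvbACT, 67.0, 74.3 and 62.0 CPM in the RNAi libraries, 66.5, 88.7 and 63.0 CPM in SvbREP, and 61.7, 72.5 and 65.8 CPM in control. All groups overlapped, and the 95% intervals of the log2 differences from control were -0.26 to 0.36 in SvbACT, -0.29 to 0.33 in the RNAi libraries and -0.19 to 0.44 in SvbREP. Punt, the type II receptor (FBgn0003169, chromosome 3R, 14619030 to 14625703, minus strand), averaged 80.7 ± 6.25 CPM in SvbACT, 83.9 ± 3.27 CPM in the RNAi libraries, 70.7 ± 4.81 CPM in SvbREP and 74.1 ± 6.73 CPM in control (SD, n = 3 each). The intervals for put against control were -0.13 to 0.38 in SvbACT, -0.08 to 0.43 in the RNAi libraries and -0.32 to 0.19 in SvbREP. The missed threshold does not show that sax and put were at equal levels, and the intervals give the size of difference that these data allow.

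Mad (FBgn0011648) had the lowest p of the 9 tested members in the test over all groups. It encodes the receptor-regulated Smad that carries the BMP signal to the nucleus, and lies on chromosome 2L at 3146056 to 3159643 on the minus strand. Its level was 349, 266 and 387 CPM in SvbACT, 299.8, 274 and 313 CPM in the RNAi libraries, 814, 571 and 746 CPM in SvbREP, and 780.5, 665 and 743 CPM in control. Every SvbACT and RNAi library was below every SvbREP and control library, with no overlap.

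Against control, Mad fell 2.18-fold in SvbACT (log2 change -1.13, SE 0.149; edgeR adjusted p = 0.000128). It fell 2.47-fold in the RNAi libraries (log2 change -1.30, SE 0.150; edgeR adjusted p = 1.04e-05). In SvbREP the log2 difference from control was -0.04, with a 95% interval of -0.35 to 0.27. SvbACT was 2.13-fold below SvbREP (log2 difference -1.09, SE 0.149; edgeR adjusted p = 0.000111). SvbACT and the RNAi libraries, whose constructs differ, were 0.18 apart on the log2 scale, with a 95% interval of -0.14 to 0.49 and an adjusted p of 0.489 by edgeR. Mad thus fell in both of these groups, whereas Dad and brk differed between them.

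With any 1 library left out, Mad was still called in the 3 comparisons above, with log2 changes of -1.25 to -0.99 for SvbACT against control, -1.38 to -1.27 for the RNAi libraries against control, and -1.23 to -0.96 for SvbACT against SvbREP. Markers of cell types moved in the same comparisons. In SvbACT against control, 0 of 7 progenitor markers were called, while 2 of 10 enterocyte markers (Myo61F and alphaTry), 1 of 8 muscle markers (bt), 1 of 8 enteroendocrine markers (Syt4) and 1 of 2 haemocyte markers (crq) were called lower, where 5.23% of all genes were called lower. The haemocyte sum was 178 to 228 CPM in SvbACT and 256 to 368 CPM in control. Syt4 averaged 1.33 CPM in SvbACT, 1.73 CPM in the RNAi libraries, 1.79 CPM in SvbREP and 40.7 CPM in control, so it was low in every group but control. The means of crq were 186, 66.5, 196 and 291 CPM in the same order. In SvbREP against control, 1 of 8 enteroendocrine and 1 of 2 haemocyte markers were called lower and 0 higher, where 2.70% of all genes were called lower. Other markers there differed: the median log2 fold change of the enteroendocrine markers was 1.41, and Sr-CI of the haemocyte list averaged 21.1 CPM in SvbREP and 16.8 CPM in control. In the RNAi libraries 5 of 7 progenitor markers fell against control (Dl, klu, Sox21a, Sox100B and zfh2), beside 13.7% of all genes called lower. Of the enteroendocrine markers, 2 of 8 were called lower there. The other progenitor markers, esg and N, were not called. They averaged 2046 and 1355 CPM in the RNAi libraries and 2027 and 1331 CPM in control. In SvbACT against SvbREP, 2 of 7 progenitor markers were called higher, and 1 of 10 enterocyte and 1 of 8 enteroendocrine markers lower. Of 8 muscle and 3 copper cell region markers, 1 of each list was called higher and 1 lower. All genes were called higher in 6.51% and lower in 6.63% there. The mean of esg was 2391 CPM in SvbACT and 1291 CPM in SvbREP. The part of any of these cells in the Mad result was not tested.

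Medea, the common Smad that partners Mad (FBgn0011655, chromosome 3R, 31611046 to 31615375, plus strand), was not called in any comparison. Med had 78.5, 90.2 and 87.9 CPM in SvbACT, 92.3, 89.1 and 88.4 CPM in the RNAi libraries, 65.8, 76.4 and 77.0 CPM in SvbREP, and 71.99, 81.3 and 72.2 CPM in control. The RNAi libraries were above all control libraries, and the log2 difference of 0.26 (SE 0.117) was not called by edgeR (adjusted p = 0.146). In SvbACT the difference from control was 0.19 on the log2 scale, with a 95% interval of -0.06 to 0.44. Exons of Med overlap 92 bp of CG11539 and 331 bp of CycG on the opposite strand, so its counts are uncertain to that extent.

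Dad fell in the RNAi libraries, and its mean was highest in SvbACT. The gene (FBgn0020493) encodes the inhibitory Smad, which blocks the phosphorylation of Mad, and lies on chromosome 3R at 17054007 to 17070408 on the plus strand. Dad had 190.2, 202 and 147 CPM in SvbACT, 65.9, 80.7 and 41.3 CPM in the RNAi libraries, 161, 151 and 102 CPM in SvbREP, and 119.7, 148 and 107 CPM in control. The RNAi libraries were below all 9 others, and the third SvbACT library was within the control range.

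In the RNAi libraries Dad fell 1.99-fold against control (log2 change -0.996, SE 0.226; edgeR adjusted p = 0.0048), and with 1 library left out this log2 change was between -1.25 and -0.78 and always called. The log2 difference of SvbACT from control was 0.52 (SE 0.220) and was not called by edgeR (adjusted p = 0.187). When the replicate number was added as a block, the same difference of 0.52 was called (edgeR adjusted p = 0.00721). The numbers of this comparison were taken as pairs from correlations in these same data, not from the labels. That fit put the block on all 12 libraries, with comparisons whose numbers were not taken as pairs. SvbREP differed from control by 0.14 (edgeR adjusted p = 0.80), and SvbACT from SvbREP by 0.39 (adjusted p = 0.304; with the block 0.40, adjusted p = 0.0321). Between the extremes, Dad was 2.87-fold higher in SvbACT than in the RNAi libraries (log2 difference 1.52, SE 0.228; edgeR adjusted p = 0.00016).

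Between SvbACT and the RNAi libraries, brk differed in the direction opposite to Dad. Brinker (FBgn0024250), encoded on chromosome X (plus strand, 7307939 to 7311132), is the repressor that BMP signalling silences. Its level was 69.6, 51.7 and 102 CPM in SvbACT, 215, 136 and 154 CPM in the RNAi libraries, 133, 91.8 and 109.7 CPM in SvbREP, and 131, 81.3 and 128 CPM in control. The RNAi libraries were above all 9 others, whereas the third SvbACT library overlapped control and SvbREP.

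SvbACT was 2.26-fold below the RNAi libraries in brk (log2 difference -1.18, SE 0.245; edgeR adjusted p = 0.00281). Neither group was called against control: the log2 difference was -0.61 (SE 0.244; edgeR adjusted p = 0.166) in SvbACT and 0.57 (SE 0.240; edgeR adjusted p = 0.116) in the RNAi libraries. For SvbACT, brk was called with the replicate block (-0.60, edgeR adjusted p = 0.0162) and without the third SvbACT library (-0.91, adjusted p = 0.0386). SvbACT differed from SvbREP by -0.58 (edgeR adjusted p = 0.151), which was called with the block (-0.59, adjusted p = 0.0155) and without the third SvbACT library (-0.88, adjusted p = 0.0366).

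The ratio of Dad to brk, 2 genes that the pathway drives in opposite directions, sums up both patterns library by library. It was 2.73, 3.90 and 1.45 in SvbACT, 0.306, 0.593 and 0.268 in the RNAi libraries, 1.21, 1.65 and 0.927 in SvbREP, and 0.913, 1.83 and 0.835 in control. Every RNAi library was below every other library. SvbREP and control overlapped, and the third SvbACT library lay within the ranges of both. This ratio was chosen with the values of both genes known and is given with no test.

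**Figure D3:**
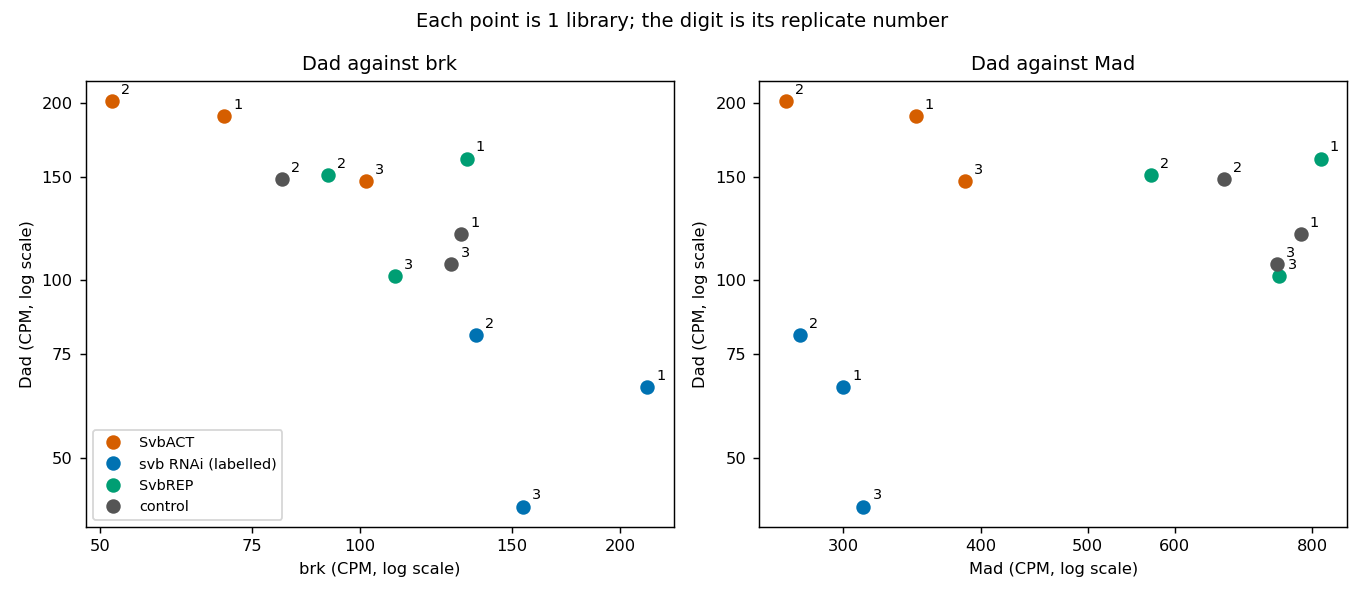
Level of Dad against the level of brk (left) and against the level of Mad (right) in CPM on log axes, with 1 point per library, colour for the group and the replicate number beside each point. In the left panel the first and second SvbACT libraries lie at the top left, with Dad at 190 and 202 CPM. The third, with Dad at 147 CPM, lies within the ranges of control and SvbREP on both axes. RNAi libraries lie at the bottom right, with Dad at 41.3 to 80.7 CPM. In the right panel the SvbACT and RNAi libraries all have Mad at 266 to 387 CPM.

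Schnurri (FBgn0003396), the large zinc-finger cofactor through which Mad and Med silence brk, is encoded on chromosome 2R at 11159086 to 11217394 on the plus strand. Its gene shn had 1025, 903 and 1106 CPM in SvbACT, 888, 785 and 886 CPM in the RNAi libraries, 1047, 1042 and 1001 CPM in SvbREP, and 1093, 1162 and 1119.8 CPM in control. Both the RNAi and the SvbREP libraries were below every control library. In the RNAi libraries shn fell 1.32-fold (log2 change -0.40, SE 0.1003; edgeR adjusted p = 0.00945), while the log2 difference of SvbREP was -0.13 (adjusted p = 0.552). Between SvbACT and the RNAi libraries shn differed by 0.25 (edgeR adjusted p = 0.115), which was called with the replicate block (0.24, adjusted p = 0.0492) and without the second SvbACT library (0.33, adjusted p = 0.0342).

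Other values moved with the RNAi results as well. The level of crq, which made up most of the haemocyte marker sum (3 of 7 markers in the table), was lower in the RNAi libraries, where that sum was 68.1 to 85.5 CPM, against 256 to 368 CPM in control. Markers of the copper cell region, where BMP signalling is active in the adult midgut, summed to 134 to 147 CPM in the RNAi libraries and 178 to 213 CPM in control over 3 of 5 markers, but these did not move together. Of the copper cell markers dve averaged 24.1 CPM in the RNAi libraries and 96.3 CPM in control and was called lower by edgeR (adjusted p = 1.6e-05), whereas CAH3 averaged 96.4 CPM in the RNAi libraries and 67.0 CPM in control and was called higher (adjusted p = 0.0133). Enterocyte markers, of which 12 of 14 are in the table, summed to 300 to 383 CPM in the RNAi libraries and 418 to 596 CPM in control. That sum was mostly Myo31DF, at 190.3 CPM in the RNAi libraries and 393 CPM in control, the 1 enterocyte marker of 10 tested that was called; Myo61F stood at 102 CPM in the RNAi libraries and 57.7 CPM in control and was not called. The part of these cells in the changes of Dad, tkv and shn was not tested.

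Within groups, several members followed the replicate number. Mad and brk were lowest in the second library in 4 of 4 groups, and sax was highest there in 4 of 4. Dad was lowest in the third library in 4 of 4 groups and highest in the second in 3 of 4. Of the remaining members, none was lowest or highest in the same library in all groups. How often genes outside the members do so was not counted. Per the design text, libraries of a genotype were made on different days, but whether equal numbers share a day is not given in the sources used here.

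Per length of exon, the order of the members in control ran from dpp at 0.0680 CPM per kb through put (18.5), Med (21.9), gbb (22.3), sax (23.3), Dad (32.0), brk (35.5), tkv (70.4) and shn (102) to Mad at 214 CPM per kb. Of the neighbours in this order, Med and gbb, gbb and sax, and Dad and brk overlapped between their 3 libraries, and the others did not.

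The genes most like Mad over the 12 libraries were CG10283, CG1907 and Pgant9, an enzyme that adds sugars to proteins. The root mean square differences of their mean-centred log2 CPM from that of Mad were 0.158, 0.194 and 0.204, against a median of 0.75 over all genes tested. CG10283 averaged 142 CPM in SvbACT, 106 CPM in the RNAi libraries, 261 CPM in SvbREP and 299 CPM in control. Those most like Dad were CG8300 (0.233), CalpB, a calpain protease (0.233), and scramb1, a phospholipid scramblase (0.247), against a median of 0.764. CalpB averaged 569 CPM in SvbACT, 205 CPM in the RNAi libraries, 461 CPM in SvbREP and 392 CPM in control.

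Beyond the core, a list of 46 further BMP and TGF-beta genes was examined, of which 37 are in the table and 33 were tested. Among them cv-2 was several-fold higher in SvbACT. Crossveinless 2 is a secreted BMP-binding protein that can promote or reduce signalling. Its level was 1051 to 1217 CPM in SvbACT, 187 to 217 CPM in the RNAi libraries, 281 to 357 CPM in SvbREP and 169.5 to 181 CPM in control. SvbACT stood apart from all other libraries, and SvbREP was above control without overlap.

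Against control, cv-2 rose 6.52-fold in SvbACT (log2 change 2.70, SE 0.115; edgeR adjusted p = 2.29e-09) and by 0.86 on the log2 scale in SvbREP (adjusted p = 0.000225). In the RNAi libraries its log2 difference of 0.21 was not called (edgeR adjusted p = 0.224). SvbACT exceeded SvbREP by 1.84 on the log2 scale (edgeR adjusted p = 2.48e-08).

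The other extracellular regulators moved in several ways. The leucine-rich repeat protein gene kek5, a modulator of BMP signalling, fell in the RNAi libraries to 1304 ± 123 CPM, against 3671 ± 349 CPM in control (SD, n = 3 each; log2 change -1.49, SE 0.142; edgeR adjusted p = 1.38e-06). The glypican genes dally and dlp encode cell surface carriers of BMP ligands and were not alike. In dally the level was 367 ± 27.5 CPM in SvbACT, 612 ± 61.4 CPM in the RNAi libraries, 519 ± 26.3 CPM in SvbREP and 451 ± 32.5 CPM in control; it rose in the RNAi libraries (log2 change 0.44, edgeR adjusted p = 0.00694) and was lower in SvbACT than in SvbREP (-0.50, adjusted p = 0.00476). In dlp the level was 92.4 ± 13.7 CPM in SvbACT, 84.5 ± 18.1 CPM in the RNAi libraries, 240.1 ± 18.6 CPM in SvbREP and 148 ± 10.96 CPM in control. It fell in SvbACT (-0.67, edgeR adjusted p = 0.00972) and in the RNAi libraries (-0.80, adjusted p = 0.00122), and rose in SvbREP (0.70, adjusted p = 0.0135). The SvbACT call of dlp was lost without the first SvbACT library (adjusted p = 0.0659), the SvbREP call without the second SvbREP library (0.0627) or the first or the third control library (0.0543 and 0.0708), and the RNAi call of dally without the second RNAi library (adjusted p = 0.0514).

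The secreted protein gene magu rose in the RNAi libraries to 47.9 ± 5.97 CPM, against 26.2 ± 2.91 CPM in control (log2 change 0.87, edgeR adjusted p = 0.00796; 0.0521 without the third control library). The BMP antagonist gene sog was higher in SvbACT than in SvbREP (71.9 ± 2.44 against 49.2 ± 9.77 CPM; log2 difference 0.55, edgeR adjusted p = 0.0257), a call lost without the first or the third SvbACT library (adjusted p = 0.0813 and 0.0724) or the second or the third SvbREP library (0.124 and 0.0648). Counts of daw, which encodes an activin-like ligand, were 0, 1 and 0 in SvbACT, 9, 40 and 13 in the RNAi libraries, 7, 5 and 2 in SvbREP, and 3, 0 and 0 in control. By edgeR daw rose in the RNAi libraries against control (adjusted p = 0.0147). It passed the filter on low counts because of the RNAi libraries, where it is highest, so the call carries that limit. The call was lost without the second RNAi library (adjusted p = 0.106) or the second or the third control library (0.0552 and 0.078).

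Receptors and Smads outside the core changed too. The type I receptor gene babo of the activin branch rose in the RNAi libraries to 337 ± 17.9 CPM, against 251 ± 5.73 CPM in control (log2 change 0.42, edgeR adjusted p = 0.00349). The type II receptor gene wit fell to 15.6 ± 4.30 CPM in the RNAi libraries, against 31.7 ± 4.89 CPM in control (log2 change -1.03, edgeR adjusted p = 0.0104; 0.0521 without the second RNAi library). Smox, the Smad of the activin branch, averaged 812 ± 63.7 CPM in SvbACT, 622 ± 34.2 CPM in the RNAi libraries, 488 ± 38.8 CPM in SvbREP and 625 ± 36.8 CPM in control. It rose in SvbACT against control (log2 change 0.38, edgeR adjusted p = 0.0288) and exceeded SvbREP by 0.73 (adjusted p = 0.000136). The call against control was lost without the first or the third SvbACT library (adjusted p = 0.052 and 0.122) or the first or the third control library (0.125 and 0.0797). The mean of Smox was thus highest in SvbACT, a group in which Mad fell.

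The EGF ligand gene vn, listed for its known link to BMP signalling in the embryonic midgut, fell to 19.2 ± 8.57 CPM in the RNAi libraries, against 61.5 ± 30.4 CPM in control (log2 change -1.67, edgeR adjusted p = 0.00699), and was lower in SvbACT than in SvbREP (38.5 ± 15.0 against 124 ± 48.2 CPM; -1.68, adjusted p = 0.00865; 0.054 without the second SvbREP library).

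In counts, 3 of the 33 genes were called in SvbACT against control (2 higher, 1 lower), 8 in the RNAi libraries (4 higher, 4 lower) and 2 in SvbREP (2 higher, 0 lower). Between SvbACT and SvbREP 6 were called (3 higher, 3 lower), and between SvbACT and the RNAi libraries 10 (5 higher, 5 lower). As shares of the list these are 9.09% for SvbACT, 24.2% for the RNAi libraries and 6.06% for SvbREP, each against control, beside 9.15%, 20.4% and 4.05% of all genes. They are 18.2% for SvbACT against SvbREP, beside 13.1% of all genes, and 30.3% for SvbACT against the RNAi libraries, beside 17.4% of all genes. In the fit with the block 6 genes were called in SvbACT against control. Between SvbACT and the RNAi libraries the count was 6 without the third SvbACT library. Without the second RNAi library the RNAi count was 5, without the first SvbACT library the SvbACT count was 1, and the SvbREP count was 1 without the second SvbREP library or without the first or the third control library and 4 without the second control library. The tested genes called in none of the 5 comparisons numbered 19, and 4 more had too few counts to be tested.

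**Figure D4:**
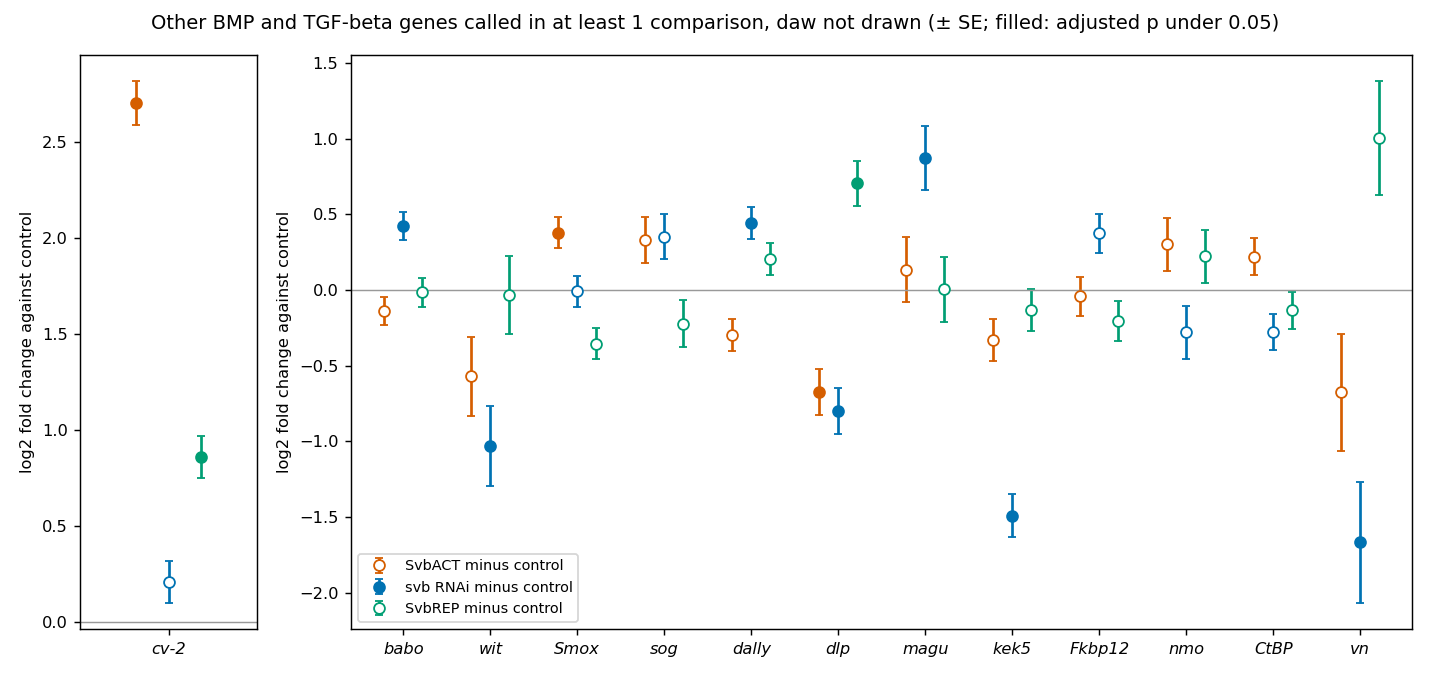
Log2 fold change against control of the genes of the wider BMP and TGF-beta list that edgeR called in at least 1 of the 5 comparisons, apart from daw, for SvbACT, the libraries labelled svb RNAi and SvbREP; bars are ± SE, filled points have an adjusted p under 0.05, and cv-2 has an axis of its own. The point of cv-2 in SvbACT lies at 2.70, that of kek5 in the RNAi libraries at -1.49, and the points of dlp lie below 0 in SvbACT and the RNAi libraries and at 0.70 in SvbREP.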

How the data were processed

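RNA of sorted cells was sequenced from 12 libraries (single reads of 100 nt). Per the submitters' processing notes, the tools were FastQC 0.11.5, STAR 2.5.2b, HTSeq 0.6.0 and edgeR, with genome build dm6; counting parameters and strand use are not given in the sources used here. The authors deposited whole-number counts per gene with no normalization, for 8802 genes in 1 table. The same deposited table holds the authors' log2 fold changes, unadjusted p-values and calls coded as a score.

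The quasi-likelihood test of edgeR 4.0.16 (glmQLFit, glmQLFTest; R 4.3.3) was fitted to the counts of all 12 libraries together, with 1 mean per group and TMM factors. Its filterByExpr settings were 10 (count), 15 (total) and 0.7 (proportion). Benjamini-Hochberg adjustment ran over all 7992 genes tested, and genes with an adjusted p under 0.05 were called. Standard errors were derived from the size of the log2 fold change and its F statistic, and 95% intervals use the t distribution with the degrees of freedom of that test. The script was tested on simulated data before use. The comparison of SvbACT with the libraries labelled svb RNAi, and the use of the fit without a filter for dpp, were added after the table was seen. Alternatives were RLE factors, DESeq2 1.42.0, no filter, the replicate number as a block, and each library left out.

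The members and gene lists were chosen with earlier results of these data known. Named genes are all 10 members, the listed BMP and TGF-beta genes called in at least 1 comparison with control or between SvbACT and SvbREP, and the 3 genes of most similar pattern to Dad and to Mad. Of the wider list, 9 genes were not analysed here, nor were markers of Malpighian tubules. Positions come from the Ensembl annotation (assembly BDGP6.54), which held 8686 of the 8802 identifiers; Med was matched by symbol.

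Replicate numbers come from the sample titles. Deviations of SvbACT libraries from their group means correlated with those of equal number in all 3 pairs of each comparison. The correlations were 0.113 to 0.248 with control, 0.103 to 0.199 with SvbREP and 0.182 to 0.221 with the RNAi libraries. These comparisons were taken as paired, but only as an alternative to the main test, which used no block. Deviations did not correlate in every pair for the RNAi libraries and control (0.0674 to 0.195) or for SvbREP and control (-0.0809 to 0.246). Libraries of a group differed by more than sampling noise, with a chi-square per degree of freedom of at least 7.89.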

Additional observations from a re-analysis of the deposited data

How the results depend on the processing

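Of the log2 differences of the 9 tested members under RLE factors, DESeq2, no filter or the block, 172 kept their direction and side of the threshold, 8 were newly called and 0 were lost or turned round. With 1 library left out, 516 kept both, 4 were newly called, 2 were lost (both tkv in the RNAi libraries against control) and 18 changed sign. With the replicate number as a block, 13 genes of the wider list were called in the libraries labelled svb RNAi against control, 6 in SvbACT and 5 in SvbREP, and 3 members were called in SvbACT against control and 4 in SvbACT against SvbREP. Genes called in SvbREP against control numbered 663 with the block and 545 by DESeq2, which called 2 members between SvbACT and SvbREP (Mad and tkv). For the RNAi libraries against control, whose numbers were not taken as pairs, brk was called under the block (log2 difference 0.58, edgeR adjusted p = 0.00884); 11 of 12 libraries correlated best with those of their own number, a hint from the data and not from the design. The block changed no other call of a member than those given here and in the results.

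With each library left out in turn, called members ranged from 1 to 3 for SvbACT against control, 1 to 2 for SvbACT against SvbREP and 3 to 6 over all 4 groups. These counts include dpp in fits where it passed the filter. Called genes of the wider list ranged from 1 to 3 for SvbACT, 5 to 9 for the RNAi libraries and 1 to 4 for SvbREP, each against control, and from 6 to 10 for SvbACT against the RNAi libraries. Among all genes, calls against control ranged from 460 to 769 for SvbACT and from 172 to 460 for SvbREP. Some log2 differences near 0, none of them called, changed sign. Against control these were gbb (-0.17 to 0.0098) and sax (-0.0045 to 0.12) in SvbACT, sax in the RNAi libraries (-0.070 to 0.074), and sax (-0.039 to 0.23), put (-0.12 to 0.016), Mad (-0.14 to 0.10), Med (-0.075 to 0.036) and brk (-0.21 to 0.10) in SvbREP. Between SvbACT and SvbREP they were sax (-0.17 to 0.088) and shn (-0.10 to 0.039), and between SvbACT and the RNAi libraries sax (-0.022 to 0.12) and Med (-0.10 to 0.0021). The cause was not tested. Depth limits dpp most, with 1 to 24 counts a library.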
